A study of Sus scrofa with 2 samples.

Results

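The microphthalmia (MiT) family of transcription factors, MITF, TFEB, TFEC and TFE3, was described in the pig cochlear stria vascularis (SV) together with USF1 and USF2, other factors that read the E-box. Members were taken by name: the gene symbol of the deposited table, or the gene description or Ensembl pig name where the symbol was blank. These names matched 8 of the 27622 features in the table, of which 3 were MITF and 1 each belonged to TFEB, TFEC, TFE3, USF1 and USF2. RNA was taken from cochlear lateral walls carrying the SV of Rongchang pigs and sequenced in 1 library of genotype MITF R/r and 1 library of genotype MITF r/r. The labels give both libraries the age P1, postnatal day 1, whereas the study's text places them at an embryonic stage. R is the normal allele and r is the allele of albino, deaf pigs of this breed, so the R/r control also carried 1 copy of r, and no R/R library was used here. Each genotype had 1 library, so that no test between genotypes was possible, no value has an SD, and every interval below covers counting error only. The number of pigs behind each library is not given in the sources used here.

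MiT proteins are basic helix-loop-helix leucine zipper factors. They bind E-box DNA as dimers, and members of the family pair with one another but not with USF, MYC or MAX. MITF directs the melanocyte lineage, which supplies the intermediate cells of the SV, and also acts in osteoclasts and the retinal pigment epithelium. TFEB and TFE3 are ubiquitous and drive lysosome and autophagy genes when nutrient signalling releases them to the nucleus, and TFEC is mostly found in macrophages. USF1 and USF2 are ubiquitous factors that share the core of the recognition site.

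The alleles differ in the promoter of the melanocyte isoform, MITF-M, by variants that include an insertion of 14 bases. The study also examined a shorter insertion and base changes nearby, and it did not exclude the shorter insertion as the causative one. The pair of oligonucleotides made for the site of the 14 bases is shown because only this pair differed in protein binding in the study. Capitals mark the inserted bases, which were followed by their own copy in the r oligonucleotide, so that the run can also be placed one repeat later.
R probe 2: atgctaattgttttttagtttaaaaaaa
r probe 2: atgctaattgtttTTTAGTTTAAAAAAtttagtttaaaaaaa

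MITF isoforms start at different first exons and share the rest of the gene. The forward primers designed for 3 of them are shown because the deposited MITF values are not given by isoform, and which isoforms each MITF feature counts is not known here, so that the level of MITF-M alone was not obtained. Since r is not a deletion of the gene, the MITF value does not check the genotype labels either.
Sus-MITF-A forward: agagccatgcagtcggaatc
Sus-MITF-H forward: aagggcttgcagaacacctt
Sus-MITF-M forward: atagtccaccatttctcattggat

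The deposited unit is RPKM, in which the reads of a gene are scaled to the length of its exon model and to the mapped reads of the library. Whole reads behind the values were worked out from their ratios, which gave totals of 15829244 reads for the R/r library and 14258672 for the r/r library, and 1 read on 1 kb was worth 0.0632 and 0.0701 RPKM. Reads were found for 98.9% of the 20862 features above 0 in either library. A log2 ratio, r/r over R/r, was compared for the 16331 features that had a value above 0 in each library and reached 1 RPKM in one or both. The median over these features was -0.02, and 90% of them lay between -0.67 and 0.54.

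MITF was lower in the r/r library in each of its 3 features, by less than 2-fold, and its widely expressed relatives TFEB and TFE3 were at nearly the same level in both libraries. USF1 and USF2 also differed little. The MITF ratio was below those of TFEB, TFE3, USF1 and USF2 by more than counting error, and TFEC was too scarce to place.

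The first MITF feature, ENSSSCG00000011512, has an exon model of 1216 bases. Its RPKM was 11.9 in the R/r library (95% Poisson interval 10.4 to 13.5, 229 reads) and 8.36 in the r/r library (7.06 to 9.84, 145 reads). The log2 ratio was -0.51, with an exact 95% binomial interval from -0.82 to -0.20. At equal RPKM, 206.3 reads would have been counted in the r/r library.

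ENSSSCG00000011513, the shortest MITF feature with 297 bases, had the highest level per length, 51.7 RPKM in the R/r library (45.4 to 58.6, 243 reads) and 37.8 RPKM in the r/r library (32.2 to 44.1, 160 reads). Its log2 ratio was -0.45 (-0.75 to -0.16). The third feature, ENSSSCG00000011514, is called MITF in the Ensembl name table and has 1148 bases. It was at 10.1 RPKM in the R/r library (8.72 to 11.7, 184 reads) and at 7.27 RPKM in the r/r library (6.02 to 8.70, 119 reads), a log2 ratio of -0.48 (-0.82 to -0.14). In all 3 features the R/r level was the higher one.

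Although the levels of the MITF features differed by up to 5.1-fold in the R/r library, their ratios did not separate from one another. The first feature minus the second was -0.06 on the log2 scale (-0.49 to 0.37), the first minus the third was -0.03 (-0.50 to 0.44), and the second minus the third was 0.03 (-0.43 to 0.48). Summed over the features, MITF had 656 R/r reads and 424 r/r reads, against 590.9 at equal RPKM. The summed log2 ratio was -0.48 (-0.66 to -0.30), a level 28.2% lower in the r/r library (18.8% to 36.6%). Which exons each feature holds, and whether the features overlap, is not known here, and reads counted in more than one feature would make the summed interval too narrow. Fewer melanocytes and less MITF RNA per cell cannot be told apart in bulk tissue.

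TFEB, a master regulator of lysosome biogenesis (ENSSSCG00000001621, 2523 bases), was at 16.3 RPKM in the R/r library (15.1 to 17.6, 652 reads) and 15.3 RPKM in the r/r library (14.04 to 16.6, 550 reads). The log2 ratio was -0.09 (-0.26 to 0.07). TFE3, which acts beside it in the nutrient response (ENSSSCG00000012287, 1964 bases), was at 34.9 RPKM in the R/r library (32.9 to 37.0, 1085 reads) and 32.9 RPKM in the r/r library (30.8 to 35.0, 920 reads), a log2 ratio of -0.09 (-0.22 to 0.04). Both intervals hold 0, and neither relative was higher in the r/r library. For TFEB and TFE3 together, with 1737 and 1470 reads, the log2 ratio was -0.09 (-0.19 to 0.01). The upper limit covers counting error at RPKM scaling only. Median scaling shifts all ratios up by 0.04, and features with reads like those of TFE3 ran from -0.31 to 0.24 (5th to 95th percentile). A small increase was therefore not excluded.

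TFEC, the family member found mainly in myeloid cells (ENSSSCG00000016637, 4019 bases), was at 0.440 RPKM in the R/r library (0.293 to 0.636) and 0.297 RPKM in the r/r library (0.173 to 0.475). These values rest on 28 and 17 reads, and TFEC did not reach the minimum of 1 RPKM. Its log2 ratio of -0.57 was the lowest of the 8 features but had an interval from -1.53 to 0.35, which holds both an equal and a 2-fold lower level, so that a difference was not detectable at this depth.

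USF1 (ENSSSCG00000006371, 1800 bases) was at 38.5 RPKM in the R/r library (36.2 to 40.8, 1096 reads) and 36.7 RPKM in the r/r library (34.4 to 39.2, 943 reads), with a log2 ratio of -0.07 (-0.19 to 0.06). USF2, with which USF1 forms its usual dimer (ENSSSCG00000002885, 1784 bases), was the most abundant member. It was at 110.5 RPKM in the R/r library (106.6 to 114.4, 3120 reads) and 105.6 RPKM in the r/r library (101.7 to 109.7, 2687 reads), and its log2 ratio was -0.06 (-0.14 to 0.01). For both together, with 4216 and 3630 reads, the log2 ratio was -0.07 (-0.13 to -0.0008), an interval that stops just short of 0 and is narrow because the reads are many.

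**Figure D1:**
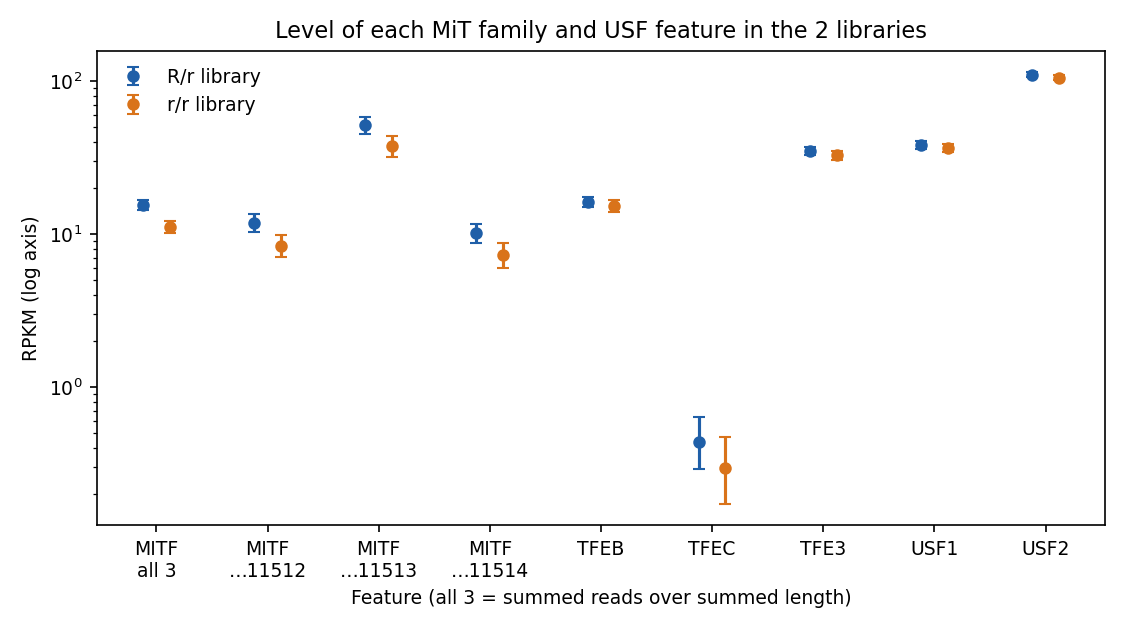
Level of each member feature in RPKM (log axis) in the R/r library (blue) and the r/r library (orange), with 95% Poisson intervals. The point called all 3 is MITF reads over summed length. The r/r points of MITF lie under its R/r points, whereas those of TFEB, TFE3, USF1 and USF2 lie close together.

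All 8 member features had a ratio below 0. Of the 7 that passed the minimum, 0 were at least 2-fold lower, against 2.2% of the compared features, and 0 were at least 2-fold higher, against 1.78%. The intervals of the 3 MITF features lay wholly below 0, which was so for 14.4% of the compared features with reads. No member interval lay wholly above 0, against 10.9% of those features, and the 5 features other than MITF had intervals that held 0. The 3 MITF features belong to 1 gene and are not 3 independent observations.

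Other compared features with like reads, within 1.5-fold of the member's reads, spread more widely than the member's own counting interval. For the first MITF feature 4.78% of 2782 such features had a lower ratio, for the second 5.48% of 2811, and for the third 6.6% of 2774. Their 5th to 95th percentiles ran from -0.50 to 0.38, from -0.48 to 0.37 and from -0.54 to 0.43. Each MITF feature therefore lay close to the lower limit of this range. TFEB, TFE3, USF1 and USF2 lay well inside it, with 32.08%, 29.37%, 33.94% and 29.3% of features of like reads below them, and TFEC had 17.99% below it.

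**Figure D2:**
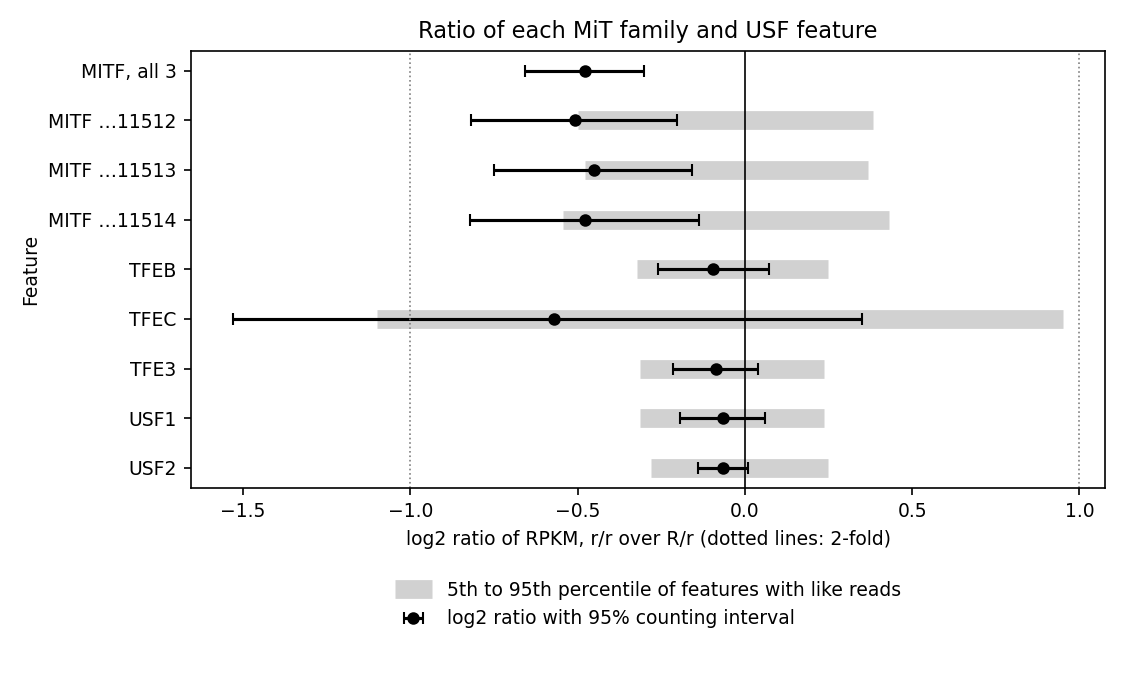
Log2 ratio of RPKM, r/r over R/r, of each member feature (points) with its exact 95% counting interval (lines), and the 5th to 95th percentile of compared features with like reads (grey bars). MITF ratios lie from -0.51 to -0.45 near the lower end of the grey bars, and TFEB, TFE3, USF1 and USF2 lie between -0.09 and -0.06.

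The differences between members were compared directly. The summed MITF log2 ratio minus that of TFEB was -0.38 (-0.63 to -0.14), and minus that of TFE3 it was -0.39 (-0.61 to -0.17), each with the exact conditional interval of the difference. Minus that of USF1 it was -0.41 (-0.63 to -0.19), and minus that of USF2 it was -0.41 (-0.61 to -0.22). Against TFEC the difference was 0.09 (-0.85 to 1.07). MITF thus differed from 4 of the 5 other members beyond counting error within this pair of libraries, and its relation to TFEC was not resolved. As for the summed ratio, reads shared between MITF features would make these intervals too narrow.

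**Figure D3:**
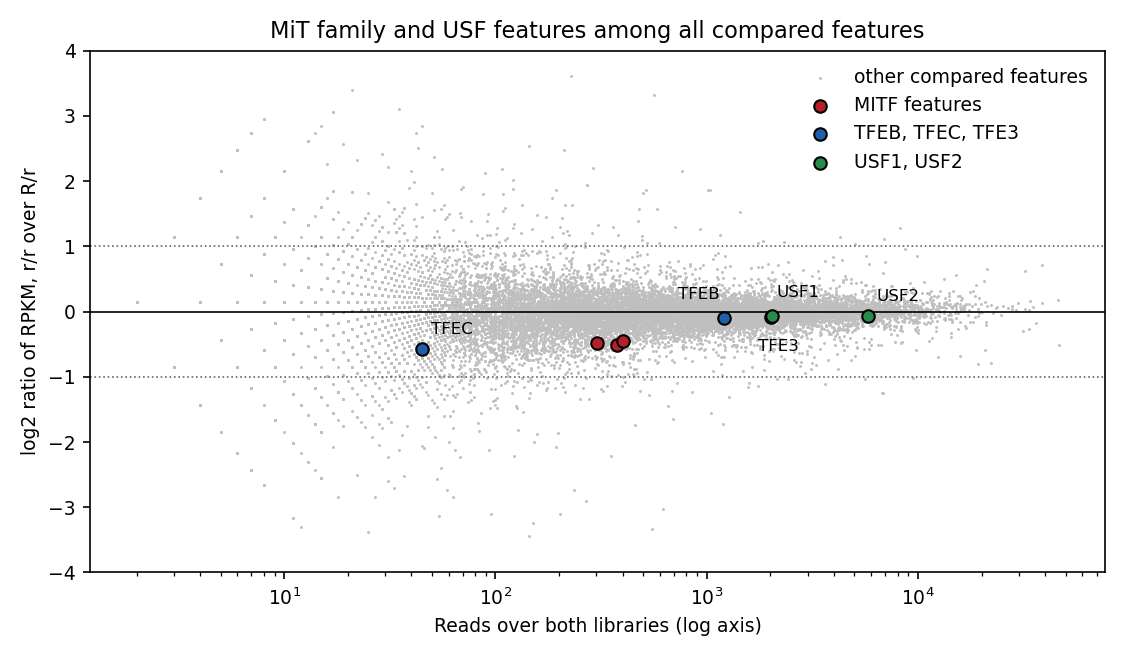
Log2 ratio of RPKM, r/r over R/r, against reads over both libraries (log axis) for the 16100 compared features with reads (grey), with MITF features in red, TFEB, TFEC and TFE3 in blue and USF1 and USF2 in green. TFEC is drawn although it is under the minimum RPKM, and 21 features beyond the axis limit of 4 are not shown. MITF lies in the lower part of the grey cloud, with 4.78% to 6.6% of features of like reads below its features. TFEB, TFE3, USF1 and USF2 lie nearer to its middle.

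The rank of MITF in the family depended on how its level was taken. Over the summed length of its features, 2661 bases, MITF was at 15.6 RPKM in the R/r library (14.4 to 16.8) and at 11.2 RPKM in the r/r library (10.1 to 12.3). On this scale the order of levels was USF2, USF1, TFE3, TFEB, MITF and TFEC in both libraries. USF2 was 2.87-fold above USF1 in the R/r library, USF1 was 1.102-fold above TFE3 (1.013 to 1.2), and TFE3 was 2.14-fold above TFEB. TFEB and MITF did not separate in the R/r library, where TFEB was 1.048-fold higher (0.939 to 1.17), but did in the r/r library, where it was 1.368-fold higher (1.203 to 1.557). MITF was 35.4-fold above TFEC in the R/r library (24.3 to 53.7) and 37.7-fold in the r/r library (23.2 to 65.3).

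By its highest feature alone MITF came second after USF2. It was then 1.34-fold above USF1 in the R/r library (1.17 to 1.55) and 1.03-fold in the r/r library (0.86 to 1.22), where these neighbours in the order did not differ. That feature rests on the exon model of 297 bases and was 3.32-fold and 3.38-fold above the level over the summed length in the R/r and r/r libraries.

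MITF made up a smaller share of the summed MiT family RPKM in the r/r library by each of the 4 ways of taking its level. By the highest feature the share was 50.01% for the R/r library and 43.82% for the r/r library, and by the summed length it was 23.2% and 18.8%. On the latter scale TFE3 held 51.9% and 55.1%, TFEB 24.3% and 25.7%, and TFEC 0.65% and 0.50%. The family as a whole was at 67.2 RPKM in the R/r library and 59.6 RPKM in the r/r library. TFE3 was therefore the most abundant MiT member by summed length, and MITF by its highest feature.

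The genes whose levels were most like each member's, by distance in log2 RPKM over the 2 libraries, were also found. For the MITF feature of highest level they were FAM102A, the LIM homeobox factor LMX1A and SLITRK2. LMX1A was at 52.1 RPKM in the R/r library and 39.5 RPKM in the r/r library, a log2 ratio of -0.40. UBXN2A, PPTC7 and HCFC1R1 came nearest to TFEB, and ETFDH, ZDHHC3 and the prolyl hydroxylase EGLN1 to TFE3. PRR11, PPARG and CDCA7 were nearest to TFEC, DPYSL2, FOXO4 and NME6 to USF1, and COX7A2L, HNRNPA3 and ARL6IP1 to USF2. With 2 libraries such likeness describes level and ratio only.

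Genes beside MITF in the RefSeq gene order were compared next, chosen after their values were seen. The nearest on one side, FRMD4B, was at 20.05 RPKM in the R/r library and 16.7 RPKM in the r/r library, a log2 ratio of -0.26 (-0.36 to -0.16), and ARL6IP5 beyond it had a log2 ratio of -0.12 (-0.22 to -0.03). LMOD3 had -0.57 (-1.45 to 0.27). On the other side MDFIC2 was not matched in the table, and FOXP1 had a log2 ratio of 0.10 (-0.11 to 0.30) and EIF4E3 of -0.12 (-0.42 to 0.18). By their point values FRMD4B and ARL6IP5 were lower in the r/r library by less than MITF was. LMOD3 was lower by more, with an interval that held 0. The differences between MITF and these neighbours were not tested, and the intervals of FRMD4B and summed MITF overlap.

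Lists of genes around the family were then described by counts and medians. Beyond the genes at least 2-fold apart and the 2 of highest level in each list, genes named below were chosen after their values were seen. The median over all compared features, -0.02, and the shares given above for them are the background of each list.

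Of 22 genes that carry nutrient signals to MITF, TFEB and TFE3, 17 were in the table and compared. Their median log2 ratio was -0.02, and 0 were at least 2-fold apart in either direction. Intervals lay wholly below 0 for 2 and wholly above 0 for 2. RRAGA, a Rag GTPase that holds these factors at the lysosome, was at 178 RPKM in the R/r library and 183 RPKM in the r/r library, a log2 ratio of 0.04. RHEB, the GTPase that activates mTORC1, was at 128 RPKM and 137 RPKM, with a log2 ratio of 0.10. TSC2, which switches RHEB off, had a log2 ratio of -0.30 (-0.39 to -0.21), and LAMTOR5, with 19 and 32 reads, 0.90 (0.04 to 1.80).

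Of 21 upstream regulators of MITF, 19 were in the table and 17 were compared, with a median log2 ratio of -0.01. One, EDNRB, the endothelin receptor of melanocyte precursors, was at least 2-fold lower. It was at 17.3 RPKM in the R/r library and 1.71 RPKM in the r/r library, a log2 ratio of -3.34 (-3.81 to -2.90), and 0 were at least 2-fold higher. Intervals lay wholly below 0 for 3 and wholly above 0 for 5. Factors that act on the MITF promoter did not share a direction. PAX3 was at 1.09 RPKM in the R/r library and listed at 0 in the r/r library. SOX10 had a log2 ratio of -0.21 (-0.58 to 0.16), taken from the entry that the study calls SOX10-like. The entry that the study calls SOX10 was near 0 RPKM in both libraries. LEF1 had a log2 ratio of -0.27 (-0.42 to -0.12), whereas CREB1 had 0.44 (0.13 to 0.75) and POU3F2, a repressor of MITF in melanoma cells, 0.74 (0.44 to 1.048). CTNNB1, the WNT effector, was the most abundant at 373 RPKM and 409 RPKM, with a log2 ratio of 0.13, followed by ATF4 at 172 RPKM and 182 RPKM, with 0.09. KIT, a receptor that signals to MITF, had a log2 ratio of 0.02 (-0.06 to 0.10).

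Pigment cell targets of MITF were much lower in the r/r library than MITF itself. Of 19 genes, 15 were in the table and 12 were compared. The median log2 ratio was -5.01, 8 were at least 2-fold lower and 0 were at least 2-fold higher, and intervals lay wholly below 0 for 9. DCT, an enzyme of melanin synthesis, was at 171 RPKM in the R/r library and 1.19 RPKM in the r/r library. TRPM1, a channel of melanocytes, was at 22.7 RPKM and 0.0142 RPKM, the latter from 1 read, with a log2 ratio between -15.95 and -8.16. The other 6 were the potassium channel KCNJ13 with a log2 ratio of -6.39, tyrosinase (TYR) with -6.06, RAB38 with -5.44, SLC45A2 with -5.11, the fibril protein PMEL with -4.92 and GPR143 with -1.25 (-1.87 to -0.65). MLANA was at 12.03 RPKM in the R/r library and listed at 0 in the r/r library. SLC24A5 was lower by less than 2-fold, with -0.94, and MREG, RAB27A and OCA2 had ratios between -0.04 and 0.04. The intervals of MREG (-0.74 to 0.65) and OCA2 (-0.78 to 0.87) were wide, as their reads were few. TYRP1, with 1 read in each library, and BCL2A1, with 6 R/r reads and 1 r/r read, were under the minimum. Summed RPKM of the list was 322 for R/r and 25.3 for r/r. These genes also mark melanocytes, and the part of melanocyte number in the MITF ratio was not tested.

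Targets of MITF in the cell cycle, survival and metabolism had a median nearer to 0 than that of the pigment cell targets. Of 21 genes, 20 were in the table and 16 were compared, with a median log2 ratio of -0.15. None, 0 of 16, was at least 2-fold apart. Intervals lay wholly below 0 for 8 of 16 and wholly above 0 for 0, against 14.4% and 10.9% of the compared features with reads. SCD, which makes unsaturated fatty acids, was at 136 RPKM in the R/r library and 123 RPKM in the r/r library, a log2 ratio of -0.15, and HIF1A, the hypoxia factor, was at 80.1 RPKM and 79.6 RPKM, with -0.01. TBX2, a repressor that delays senescence of melanocytes, had -0.58 (-0.72 to -0.44), the receptor MET -0.33 (-0.50 to -0.17) and CDK2 -0.25 (-0.46 to -0.03). Log2 ratios in this list ran from -0.58 to 0.16.

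Targets shared by MITF and TFE3 in osteoclasts numbered 10, all in the table, and 7 were compared. The median log2 ratio was -0.04, 0 were at least 2-fold apart, and intervals lay wholly below 0 for 1 and wholly above 0 for 2. CTSK, the collagen-degrading protease of osteoclasts, was at 141 RPKM in the R/r library and 138 RPKM in the r/r library, with a log2 ratio of -0.04. MMP9, a gelatinase, was at 71.4 RPKM and 49.7 RPKM, a log2 ratio of -0.52 (-0.61 to -0.44).

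Lysosome and autophagy targets of TFEB and TFE3 lay close to the median of all features, as both factors did. Of 40 genes, 39 were in the table and 35 were compared, with a median log2 ratio of -0.04 and 0 at least 2-fold apart. Of the 34 with reads, 7 had intervals wholly below 0 and 2 wholly above. PSAP, the precursor of saposins, was at 855 RPKM in the R/r library and 814 RPKM in the r/r library, a log2 ratio of -0.07, and ATP6V0E1, a subunit of the proton pump, was at 328 RPKM and 352 RPKM, with 0.10. The proteases CTSD, with -0.45 (-0.67 to -0.23), and CTSL, with -0.37 (-0.51 to -0.22), had the lowest log2 ratios of the list.

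Other helix-loop-helix factors that bind the E-box, or hold its binders, numbered 33, of which 30 were in the table and 29 were compared. Their median log2 ratio was -0.08, and 0 were at least 2-fold apart. Of the 27 with reads, 8 had intervals wholly below 0 and 2 wholly above. The inhibitors of DNA binding ID1 and ID2, which pair with such factors without binding DNA, had the highest levels. ID2 was at 105 RPKM in the R/r library and 173 RPKM in the r/r library, a log2 ratio of 0.72 (0.65 to 0.80), and ID1 was at 104 RPKM and 119 RPKM, with 0.19 (0.10 to 0.29). The lowest log2 ratio of the list was -0.85, that of MLXIPL, at 6.03 RPKM in the R/r library and 3.35 RPKM in the r/r library, without reads found. HES1 had -0.52 (-0.84 to -0.19), HEY1 -0.48 (-0.80 to -0.16), MYC -0.33 (-0.62 to -0.05) and the clock repressor BHLHE41 -0.45 (-0.61 to -0.29). MAX, the shared partner of MYC and MXD factors, had 0.03 (-0.14 to 0.20).

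**Figure D4:**
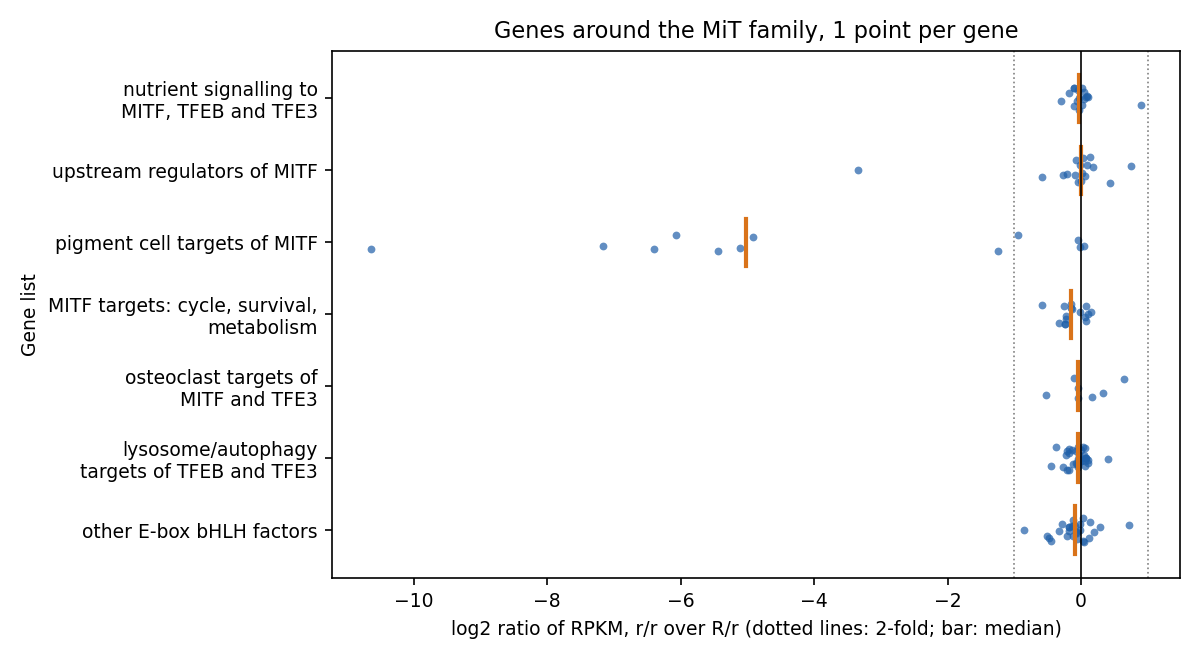
Log2 ratio of RPKM, r/r over R/r, for the compared genes of 7 lists around the MiT family (points, 1 per gene, spread vertically at random) with the median of each list (orange bars). The pigment cell targets lie far to the left with a median of -5.01, and the medians of the other 6 lists lie between -0.15 and -0.01.

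Cell types that carry MiT factors were followed by their markers. SV and lateral wall genes were present in both libraries. Of 17 such genes, 11 were in the table and compared, with a median log2 ratio of -0.30, 10 of 11 ratios below 0, 1 at least 2-fold lower and 0 higher. Of the 9 with reads, 6 had intervals wholly below 0 and 1 wholly above. The interval above 0 was that of SLC12A2, with a log2 ratio of 0.10 (0.05 to 0.15). The gene at least 2-fold lower was KCNJ10, deposited as KIR1.2, an inward rectifier through which intermediate cells pass potassium, with -1.75 (-2.08 to -1.42). ATP1B2, a subunit of the sodium pump, was at 915 RPKM in the R/r library and 522 RPKM in the r/r library, a log2 ratio of -0.81 (-0.85 to -0.77). COCH, a matrix protein of lateral wall fibrocytes, was at 6826 RPKM in the R/r library and 4914 RPKM in the r/r library, and CLDN11 of basal cell tight junctions at 840 RPKM and 706 RPKM. Summed RPKM over the list was 9735 and 7192.

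Macrophage and osteoclast markers, which belong to the cells where TFEC is known, numbered 15. All were in the table, 13 were compared, the median log2 ratio was -0.12 and 0 were at least 2-fold apart. The summed RPKM was 250 for R/r and 237 for r/r, of which CTSK alone gave 141 and 138. Next in level was C1QC with a log2 ratio of -0.11. The receptor CSF1R had -0.47 (-0.70 to -0.24).

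Of 6 markers of the retinal pigment epithelium, RPE65 and TTR were listed at 0 in both libraries. RGR and BEST1 were compared, both under 2-fold with intervals wholly below 0, with a median log2 ratio of -0.57, and the summed RPKM was 29.9 and 20.6. Schwann cell genes mark cells that share the neural crest origin of melanocytes. Of 8 such genes, 6 were in the table and 4 were compared. These included a gene not reported here, so the list as a whole is not summarised. NCMAP had a log2 ratio of 0.14 (-0.05 to 0.32), PRX of 0.11 (-0.01 to 0.22) and ERBB3 of 0.22 (0.04 to 0.39). EGR2, under the minimum with 21 R/r reads and 6 r/r reads, went the other way with -1.66 (-3.26 to -0.30). The part of any of these cell types in the MITF or TFEC ratio was not tested.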

How the data were processed

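RNA-seq was made from 1 R/r and 1 r/r library. Per the submitters' processing notes, the authors aligned reads with TopHat2 2.0.7 to Sscrofa 10.2, and they deposited RPKM values, which already carry scaling to exon length and depth. The counting program and annotation are not given in the sources used here.

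Whole reads were recovered by finding library totals that made exon-model lengths whole (tolerance 0.003), which held for 74.1% of 2647 features used. Where lengths share a factor, fewer reads than the true number are recovered, and the interval is then too wide. The study made paired-end reads, and whether the ends of a pair were counted separately is not given in the sources used here. If they were, the intervals are too narrow. In data simulated for this comparison over 16100 features, 96.2% of intervals held the true ratio. The simulated reads carried counting error only. The share therefore checks the recovery of reads and the interval arithmetic, and not how widely real libraries differ.

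Ratios used no pseudocount, a minimum of 1 RPKM in either library and the study's threshold of 2-fold. Intervals at 95% were exact Poisson, Clopper-Pearson or conditional odds-ratio intervals. Members and lists were chosen with earlier results of these data known. Named genes were all members, list genes at least 2-fold apart, the 2 of highest level in each list, and the 3 nearest genes by level; a list gene that the rule names is not reported here. Other list genes and the neighbours of MITF were named after their values were seen. RefSeq of a later assembly gave gene order only. A further 2 unheaded columns, with the authors' differences and ratios for some genes, were not used. The level of MITF over summed length and ratios relative to features of like reads were added after seeing the data. Python 3.11.15, scipy 1.17.1, numpy 2.4.6, pandas 2.3.3 and matplotlib 3.10.9 were used.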

Additional observations from a re-analysis of the deposited data

How the results depend on the processing

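The log2 ratios of the member features stayed within their counting intervals in 63 of 63 alternatives, and the MITF ratio over its features ran from -0.51 to -0.43. Many of these outcomes were fixed in advance, because a minimum cannot alter a feature's own ratio and a scaling moves all ratios alike. TFEC ranged from -0.60 to -0.15, the latter with a pseudocount, and had no value at a minimum of 5 RPKM. Scaling shifted all ratios by 0.04 (median), 0.02 (upper quartile) or -0.04 (TPM). The count of members at least 2-fold apart stayed at 0. MITF's share of the family, 50.01% (R/r) and 43.82% (r/r), was 58.8% and 52.4% from the summed RPKM of its features, 16.4% and 13.1% from the lowest feature, and 23.2% and 18.8% over summed length. At 1.5-fold, the genes apart numbered 1 for nutrient signalling, 2 for upstream regulators, 1 for osteoclast targets, 2 for other E-box factors, 2 for the SV and 1 for the retinal pigment epithelium. Upstream regulators numbered 2 with either pseudocount, when PAX3 entered. The pigment median was -3.45 under a pseudocount of 1 and -3.68 when the minimum was dropped. With no minimum, the osteoclast median was 0.064 with 1 gene apart, the lysosome count was 1 and the Schwann count 2. The SV median was -0.25 after median scaling and -0.33 in TPM. Medians near 0 changed sign: after median scaling they were 0.0065 for lysosome targets, 0.021 for nutrient signalling, 0.0052 for osteoclast targets and 0.038 for upstream regulators, and the last was 0.013 after upper quartile scaling. No paired analysis was possible because each genotype had 1 library, and for the same reason no replicate could be left out. Depth limits TFEC most.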
